A study of Homo sapiens with 12 samples.

Results

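The Groucho/TLE family of transcriptional co-repressors, TLE1 to TLE5, was examined in K562 cells treated with an inhibitor of the deubiquitinase USP7. The members were taken by symbol and make up 5 of the 60609 genes listed in the count data. The family was picked on the lower level of TLE3 after treatment in these same libraries. The TLE3 values are therefore given as a description, without a p-value, and so is every sum or share that contains TLE3.

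K562 is an established human line of erythroleukemic cells from a patient with chronic myeloid leukemia. FT671 is a compound that inhibits USP7. Cells received either the solvent DMSO (3 libraries) or 10 µM FT671 (3 libraries) for 48 h. RNA-seq libraries were prepared from total RNA depleted of ribosomal RNA. No other genetic change or agent is given for either group. The libraries held between 4555220 and 14250500 counts, so that the smallest level taken as detectable, 3 counts in a library, corresponded to 0.211 to 0.659 CPM (counts scaled to library size). This limit covers counting error only. According to the study, the libraries come from independent experiments. Of 14 erythroleukemia markers, 12 had a mean of at least 1 CPM in DMSO and 13 in FT671. Their summed level was 1313 to 1349 CPM in DMSO and 1178 to 1227 CPM in FT671, and the means of 7 markers were higher and of 7 lower in FT671. The globin genes HBZ (39.0 and 136.9 CPM) and HBG1 (36.9 and 99.0 CPM) had higher means, GATA1 (297 and 244 CPM) and KLF1 (151 and 85.9 CPM) lower ones. The granulocyte and monocyte markers summed to 51.4 to 54.0 CPM in DMSO and 72.6 to 76.0 CPM in FT671 (1 of 5 at 1 CPM or more, LYZ), with ELANE at 0. The lymphoid markers summed to 18.7 to 23.5 and 26.5 to 32.9 CPM (2 of 5 at 1 CPM or more), with MS4A1 at 0. The epithelial, fibroblast and liver markers summed to 205 to 252 and 264 to 277 CPM (4 of 5 with a mean of at least 1 CPM in DMSO, 3 in FT671). These 4 summed levels moved with the treatment, and their part in the results below was not tested. In bulk RNA, fewer cells of a type and less RNA per cell cannot be told apart.

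TLE proteins do not bind DNA themselves. They are carried to promoters and enhancers by DNA-binding factors such as the HES proteins, the RUNX proteins and the TCF/LEF factors. There they recruit histone deacetylases to silence the genes nearby. TLE1, TLE2, TLE3 and TLE4 are full-length co-repressors with an N-terminal oligomerization domain and a C-terminal WD40 domain that docks on the partner factors. TLE5, also known as AES, is a short family member without the WD40 domain, which can pair with the full-length proteins and can counteract them. In the WNT pathway, full-length TLE proteins sit on TCF/LEF factors when the pathway is off and are displaced by beta-catenin when it is on.

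In hg38 with GENCODE release 44, TLE3 (ENSG00000140332) lies on the minus strand at chr15:70047790-70098176. TLE1 (ENSG00000196781, minus strand, chr9:81583683-81689547) and TLE4 (ENSG00000106829, plus strand, chr9:79571773-79726882) share an arm of chromosome 9 and are 1856800 bp apart. TLE2 (ENSG00000065717, chr19:2997639-3047635) and TLE5 (ENSG00000104964, chr19:3052910-3063107) are neighbours on the minus strand of chromosome 19 with 5274 bp between them. TLE6, a further gene with a TLE symbol, follows 2459 bp beyond TLE2.

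For all 5 members, RefSeq (GRCh38.p14) holds promoter windows that start at the annotated main transcript. The 250 bases before the start contained 33 CG dinucleotides in TLE1, 29 in TLE2, 17 in TLE3, 20 in TLE4 and 37 in TLE5, compared with a median of 11 over 35116 windows of the same length. The letters CACGTG, a palindrome searched on both strands and known as an E-box, were found once in the TLE3 window and in no other member's window, and in 6.34% of all windows. The letters CCAAT, searched on both strands, were found once each in the windows of TLE1, TLE3 and TLE4, and in 32.0% of all windows. To let the members be compared, 3 stretches are shown: that of TLE1, which had 1 count in all libraries, that of TLE3, which was lower after FT671, and that of TLE5, the most abundant member. For TLE1 (chr9:81689548-81689797) and TLE5 (chr19:3062496-3062699) the capitals mark CG, and the stretches lie outside the exons of the gene. For TLE3 (chr15:70097968-70097997) the window lies within an exon of a longer transcript, so only the 30 bases around the E-box, in capitals, are given. All 3 are on the minus strand and are written 5′ to 3′.
TLE1: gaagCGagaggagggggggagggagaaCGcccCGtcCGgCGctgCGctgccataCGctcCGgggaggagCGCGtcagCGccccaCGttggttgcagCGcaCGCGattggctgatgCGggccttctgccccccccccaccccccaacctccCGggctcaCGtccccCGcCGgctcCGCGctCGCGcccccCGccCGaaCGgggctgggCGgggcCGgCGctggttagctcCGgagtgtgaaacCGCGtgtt
TLE3: gtcccgcagcccCACGTGggggccccgcgc
TLE5: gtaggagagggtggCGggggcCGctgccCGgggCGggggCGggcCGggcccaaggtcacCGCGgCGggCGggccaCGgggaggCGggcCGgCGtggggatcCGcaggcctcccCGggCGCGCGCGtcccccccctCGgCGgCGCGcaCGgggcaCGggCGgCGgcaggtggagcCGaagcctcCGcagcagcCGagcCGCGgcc
These letters are a description of the windows, and no binding or histone mark data were analysed here.

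To see which TLE genes K562 cells use at all, levels in the DMSO libraries were compared per kilobase (kb) of exon, since a longer transcript yields more counts. TLE5 had the highest level with 88.9 ± 5.93 CPM per kb (mean ± SD, n = 3 for all groups). TLE3 followed with 19.8 ± 1.47 CPM per kb and TLE2 with 17.4 ± 1.61. The ranges of TLE3 (18.5 to 21.4) and TLE2 (15.8 to 19.0) overlapped, so these neighbours in the order were not set apart. Their ranges no longer overlapped without DMSO replicate 2 or without DMSO replicate 3, each of which left 4 instead of 3 neighbouring pairs apart. TLE4 reached only 1.75 ± 0.231 CPM per kb, below TLE2 in every library. TLE1 was practically silent: it had 1 count in DMSO replicate 2 and 0 in the other 5 libraries, below the limit of 3 counts per library, and no fold change is given for it. K562 cells thus contained transcripts of 3 full-length members, TLE2, TLE3 and TLE4, and a larger amount of the short member.

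After FT671 the order was TLE5 (100.3 ± 2.49 CPM per kb), TLE2 (14.3 ± 1.88), TLE3 (6.48 ± 0.0561), TLE4 (0.891 ± 0.196) and TLE1 (0 counts in all 3 libraries). All neighbours were apart in their ranges here. TLE2, between 12.5 and 16.2 CPM per kb, thus stood above TLE3, between 6.45 and 6.55. In DMSO the mean of TLE3 was the higher, but the ranges of these neighbours overlapped.

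TLE3 carried 3554, 2949 and 1264 counts in DMSO replicates 1, 2 and 3, which is 246, 270 and 234 CPM after scaling. In FT671 replicates 1, 2 and 3 it carried 372, 451 and 911 counts, or 82.6, 81.4 and 81.4 CPM. All 3 FT671 libraries lay far below the lowest DMSO library, and they hardly differed among each other. The log2 fold change was −1.61 (SE 0.0777), a 3.06-fold lower level. Among the 13895 genes tested, 185 (1.33%) had a lower log2 fold change than TLE3. The only annotated gene within TLE3 is the microRNA gene MIR629 on the same strand, which had 2 counts in all libraries together.

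**Figure D1:**
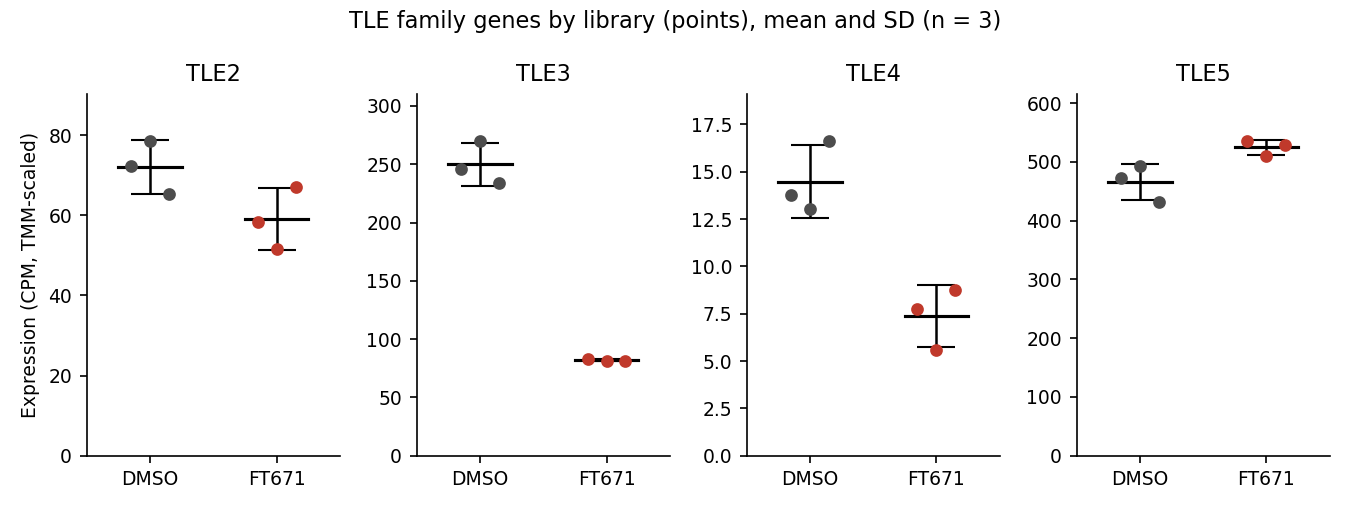
Expression of TLE2, TLE3, TLE4 and TLE5 in CPM (counts scaled to TMM-adjusted library size) in each DMSO (grey) and FT671 (red) library. Points are libraries in the order of their replicate number, the long bars are means and the whiskers SDs (n = 3), and each panel starts at 0. The FT671 libraries of TLE3 sit at 81.4 to 82.6 CPM against 234 to 270 CPM in DMSO, those of TLE4 also sit below DMSO, those of TLE2 overlap with DMSO and those of TLE5 sit above it.

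Next, the other members were tested with edgeR (quasi-likelihood), with p-values adjusted by Benjamini-Hochberg over all genes tested. Of the 5 members 4 passed the filter on low counts and TLE1 did not. Of these, 3 were called lower at an adjusted p-value of 0.05, including TLE3 on which the family was chosen, and 0 were called higher. Over all genes 26.5% were called lower and 23.6% higher. FT671 libraries lay entirely below DMSO libraries for 2 members (TLE3 and TLE4; 30.3% of all genes) and entirely above for 1 (TLE5; 26.8% of all genes). Since the choice of the family used this contrast, nothing is read from these counts.

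TLE4, the full-length member next to TLE1 on chromosome 9, was weakly expressed. It had 199, 142 and 90 counts with DMSO, replicates 1 to 3 (13.8, 13.0 and 16.6 CPM) and 35, 31 and 98 counts with FT671, replicates 1 to 3 (7.77, 5.59 and 8.76 CPM). Each FT671 library was below each DMSO library. TLE4 fell by 0.91 on the log2 scale (SE 0.176, edgeR adjusted p = 7.3e-04), a 1.87-fold lower level. The call was kept in every alternative run, with log2 fold changes between −1.10 and −0.76 and adjusted p-values of at most 0.00473.

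TLE2 had 1044, 858 and 353 counts with DMSO, replicates 1 to 3 (72.3, 78.6 and 65.3 CPM) and 263, 286 and 751 counts with FT671, replicates 1 to 3 (58.4, 51.6 and 67.1 CPM). The groups overlapped, as FT671 replicate 3 was above DMSO replicate 3. TLE2 fell by 0.28 on the log2 scale (SE 0.107, edgeR adjusted p = 0.0404), a 1.22-fold lower level close to the threshold. The call was lost when a single library was left out, namely without DMSO replicate 1 (−0.29, adjusted p = 0.0879), DMSO replicate 2 (−0.21, adjusted p = 0.169), FT671 replicate 1 (−0.27, adjusted p = 0.105) or FT671 replicate 2 (−0.19, adjusted p = 0.211). It was also lost with DESeq2's Wald test (−0.26, adjusted p = 0.0728) and after correction for GC content (−0.17, adjusted p = 0.119). Over all alternatives the adjusted p of TLE2 in the fits across all genes ranged from 0.00188 to 0.211, and the call thus depended on single libraries and on the setting.

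TLE5, the short member, was the only one with a positive log2 fold change. It had 6822, 5378 and 2335 counts with DMSO, replicates 1 to 3 (472, 493 and 432 CPM) and 2414, 2831 and 5915 counts with FT671, replicates 1 to 3 (536, 511 and 529 CPM). Each FT671 library was above each DMSO library by a narrow margin. The log2 fold change of 0.17 (SE 0.0704) did not pass the test (edgeR adjusted p = 0.0549). It passed after correction for gene length (0.25, adjusted p = 0.00547) or GC content (0.25, adjusted p = 0.00104), with DESeq2's size factors (0.19, adjusted p = 0.0416), and without DMSO replicate 2 (0.22, adjusted p = 0.0309). The corrections also moved the median over all genes tested, from −0.01 to 0.044 (length) and 0.029 (GC). Without DMSO replicate 3 the log2 fold change of TLE5 was 0.11 (adjusted p = 0.0978). Over all alternatives its adjusted p ranged from 5.93e-04 to 0.299.

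An antisense lncRNA gene, ENSG00000267469 (chr19:3052910-3053724, plus strand), has both its exons inside the last exon of TLE5. Its counts were 46.3 to 47.1% of those of TLE5 in the DMSO libraries and 43.7 to 47.9% in the FT671 libraries. The 2 genes kept nearly the same ratio in every library, and the log2 fold change of the lncRNA gene (0.16, edgeR adjusted p = 0.0712) was close to that of TLE5. An unstranded count by STAR would leave reads in such an overlap unassigned, yet 11977 counts were given to the lncRNA gene. The strand setting and the annotation of the counting are not given in the sources used here, and whether the pair was counted by strand was not tested. With both counts added, the log2 fold change was 0.17 (edgeR adjusted p = 0.0543).

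**Figure D2:**
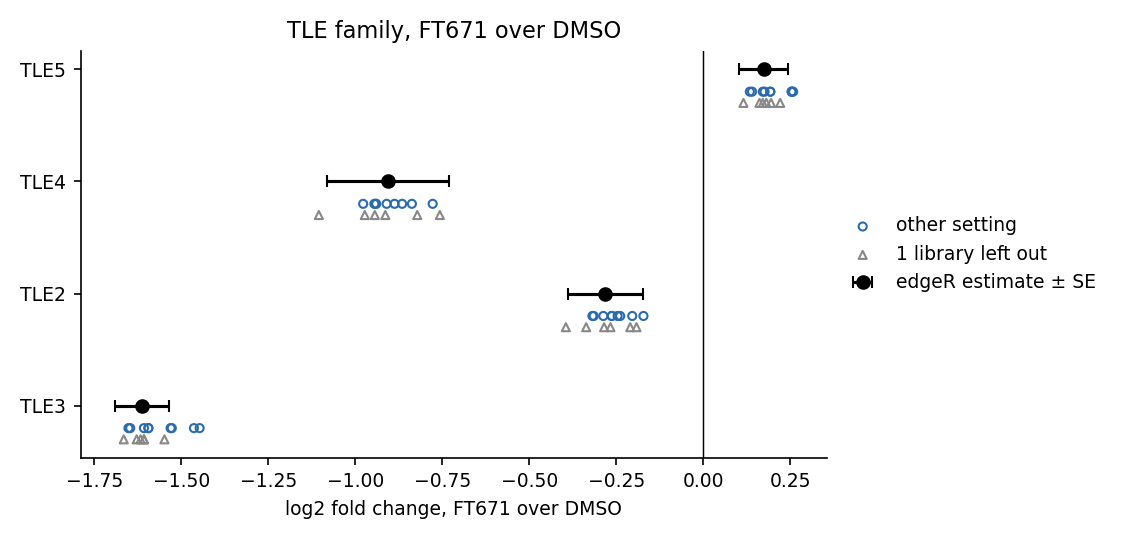
Log2 fold change of TLE2, TLE3, TLE4 and TLE5, FT671 over DMSO. Black points are the edgeR estimates with their SE, open circles the other settings and triangles the fits with 1 library left out. TLE3 lies at −1.61, TLE4 at −0.91, TLE2 at −0.28 and TLE5 at 0.17, and no setting crosses 0.

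TLE6, which is expressed mainly in germ cells and early embryos, had 9 to 40 counts per library (log2 fold change −0.36, SE 0.319, edgeR adjusted p = 0.363), and the groups overlapped. TLE7 had 0 counts in all 6 libraries. The pseudogene TLE1P1 and the divergent transcript TLE1-DT also had 0 counts.

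To ask what remained of the family as a whole, the levels of all 5 members were added up in each library. Total TLE output was 805, 854 and 747 CPM in the DMSO libraries and 685, 649 and 686 CPM in the FT671 libraries, in the order of replicate numbers. The group means were 802 ± 53.7 and 673 ± 20.9 CPM, a change of −16.0% (log2 ratio −0.25). Each FT671 library was below each DMSO library on this scale. Per kb of exon, however, the output was 128 ± 8.71 and 122 ± 4.17 (log2 ratio −0.069), and the groups overlapped. With the antisense gene counted as TLE5, the log2 ratio in CPM was −0.15.

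TLE3 has the longest exons (12617 bases in union, against 5236 in TLE5) and therefore weighs more in CPM than per kb. The mean level changed by −168 CPM in TLE3, −13.0 CPM in TLE2 and −7.10 CPM in TLE4, and by 59.6 CPM in TLE5. Without TLE3, the output was 552 ± 35.8 CPM in DMSO and 592 ± 20.5 CPM in FT671, a log2 ratio of 0.10. The groups overlapped, as FT671 replicate 2 (568 CPM) was below DMSO replicate 2 (584 CPM). A two-sided exact permutation test gave p = 0.2. It could not have reached 0.05, because 0.1 is the smallest p that 3 libraries against 3 allow. Nothing is read from this p-value. The log2 ratio was 0.05 without DMSO replicate 3.

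The 4 full-length members together, TLE1 to TLE4, were at 38.6, 42.0 and 36.3 CPM per kb in DMSO replicates 1, 2 and 3. In FT671 replicates 1, 2 and 3 they were at 21.6, 19.6 and 23.7 CPM per kb, a change of −44.5% in the mean. The groups were well apart, and most of the gap was TLE3, which made up 50.8 ± 0.303% of the full-length output in DMSO and 30.2 ± 2.87% in FT671. TLE3 as a share of all TLE output per kb was 15.5 ± 0.313% and 5.32 ± 0.169%, a difference of −10.2 percentage points. As a share of counts, without length, the difference was −19.0 percentage points.

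In contrast, TLE5 made up 69.5 ± 0.445% of the output per kb in DMSO and 82.3 ± 1.18% in FT671. The level of TLE5 per kb, divided by that of the full-length members, was 2.34, 2.24 and 2.27 in the DMSO libraries and 4.74, 4.98 and 4.26 in the FT671 libraries. The ratio of the short to the full-length members was thus higher in every FT671 library. Calculated without TLE3, against TLE2 and TLE4 with the single TLE1 count, the ratio was 4.64 ± 0.0720 in DMSO and 6.69 ± 0.795 in FT671, again without overlap. This denominator was mostly TLE2 (17.4 of 19.2 CPM per kb in DMSO, 14.3 of 15.1 in FT671). The call of TLE2 depended on the setting and TLE5 was not called in the main fit, so this ratio is given as a description. RNA levels only were measured here, and the amounts of TLE proteins were not.

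**Figure D3:**
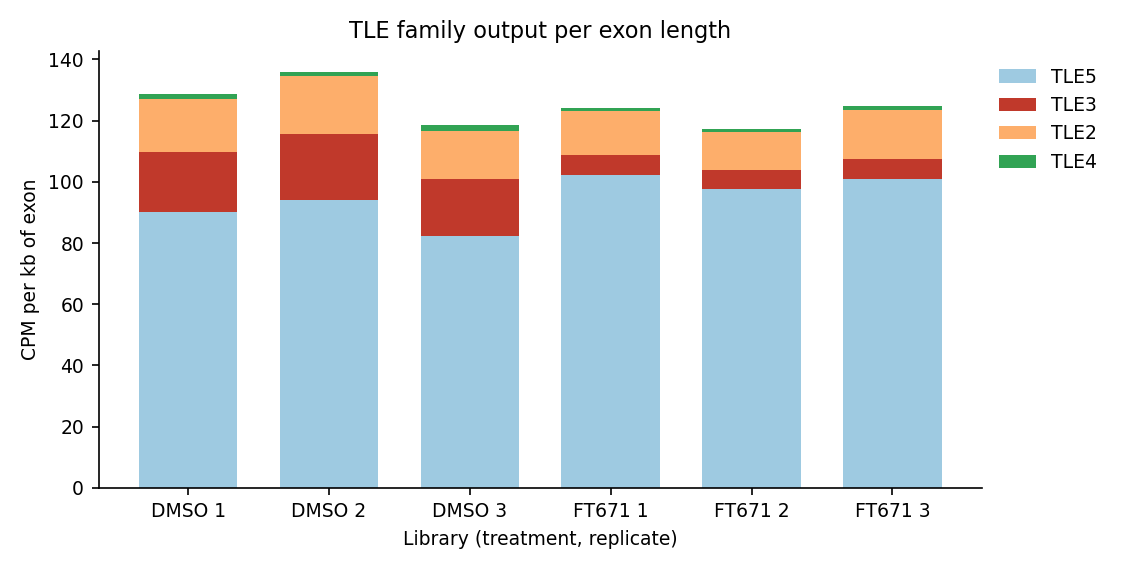
TLE family output in each library, in CPM per kb of exon, stacked by member (TLE1 is too low to draw). The bars of all libraries end between 117 and 136, while the TLE3 segment takes 15.1 to 15.7% of each DMSO bar and 5.18 to 5.51% of each FT671 bar.

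Then, genes with a pattern most like that of TLE3 were looked up, as the shortest Euclidean distance of centred log2 CPM over the 6 libraries among 13894 other genes. These were RAI1 (distance 0.129, log2 fold change −1.60), the tumor suppressor NF2 (0.169, −1.65), the endosomal sorting gene VPS37B (0.174, −1.53), the WNT receptor FZD4 (0.174, −1.52) and the G protein subunit gene GNA11 (0.186, −1.49). GNA11 lies 31254 bp from TLE5 on chromosome 19. The other TLE genes were much less like TLE3, with 1007 genes nearer than TLE4 (distance 0.989), 3929 nearer than TLE2 (1.63) and 8414 nearer than TLE5 (2.18). The patterns were largely the difference between the treatments, which chose TLE3, and are given as a description.

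Because TLE proteins act only through other proteins, the genes that work with them were listed by role, in 7 lists of 115 genes, of which 88 could be tested. Of these, 34 (38.6%) were called lower and 15 (17.0%) higher, beside 26.5% and 23.6% of all genes tested, and the median log2 fold change was −0.14, compared with −0.01 over all genes tested. Within single lists the share called lower ran from 14.3% (HES and HEY) to 50% (the TCF/LEF and the ubiquitin and kinase lists), to be read beside the same shares of all genes. The split depended on corrections: it was 27 lower and 24 higher after correction for gene length and 35 lower and 24 higher after correction for GC content. Over all genes tested the split moved as well, from 3687 lower and 3276 higher to 3325 and 3848 (length) and 3742 and 4011 (GC). The median over all genes was 0.044 after the length correction and 0.029 after the GC correction. Corrected values of the single lists below are to be read beside these. Of the list genes named by rule below, 14 overlap another tested gene, mostly on the opposite strand, and their counts are to that extent uncertain: RBBP7, GPS2, CTBP2, PRDM1, BCL6, RUNX2, CBFA2T3, TCF7, PYGO2, CTNNB1, BCL9L, UFD1, RNF43 and MYC. Among them, TCF7 and GPS2 overlap more abundant genes of the opposite strand with higher means after FT671. These are SKP1 for TCF7 (78.8 to 123 CPM, log2 fold change 0.65) and EIF5A for GPS2 (263 to 366 CPM, 0.48).

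HES proteins recruit TLE proteins through a short C-terminal peptide. HEY genes were listed beside them by family, and whether their proteins bind TLE was not tested. The HES and HEY list had 7 of 13 genes tested, with 1 called lower, 3 called higher and a median log2 fold change of 0.17 (0.39 without DMSO replicate 1). HES1, a Notch effector, fell from 100.3 ± 9.18 to 65.6 ± 5.71 CPM (log2 fold change −0.61, edgeR adjusted p = 1.14e-04). HEY1, another Notch effector, rose from 24.6 ± 0.0525 to 59.7 ± 2.87 CPM (1.27, adjusted p = 1.93e-07). HES7 rose from 0.591 to 4.10 CPM (2.62, adjusted p = 1.27e-05) at very low levels, and HES6 rose by 0.50 (adjusted p = 0.01). Genes of this list thus moved in both directions, also among the HES genes alone.

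Of the RUNX and CBF partners 5 of 7 were tested, with 2 called lower, 0 higher and a median of −0.21 (−0.086 after correction for gene length). The number called lower was 1 without FT671 replicate 2. CBFA2T3, a co-repressor of the ETO family that works in erythroid cells, fell from 251 ± 5.28 to 112 ± 2.79 CPM (log2 fold change −1.16, edgeR adjusted p = 3.9e-08). RUNX2 fell from 7.54 to 4.80 CPM (−0.64, adjusted p = 0.0139). RUNX1, the main RUNX factor of blood cells, was at 108 and 96.2 CPM and did not pass (−0.17, adjusted p = 0.072).

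The TCF/LEF and beta-catenin list had 8 of 10 genes tested, with 4 called lower, 1 higher (2 without DMSO replicate 3, with DESeq2's size factors and after either correction) and a median of −0.54. The genes called lower included members of the machinery that displaces TLE proteins from TCF/LEF factors. CTNNB1, which encodes beta-catenin, fell from 186 ± 6.70 to 106 ± 1.91 CPM (log2 fold change −0.81, edgeR adjusted p = 8.26e-07). Its co-activators BCL9L (63.6 to 22.4 CPM, −1.49, adjusted p = 1.47e-07) and PYGO2 (41.5 to 19.6 CPM, −1.11, adjusted p = 3.28e-06) fell more. TCF7L2, a TCF factor, fell from 14.0 to 7.64 CPM (−0.79, adjusted p = 0.00189). TCF7, another TCF factor, rose from 21.2 to 32.3 CPM (0.59, adjusted p = 7.43e-04).

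Of 27 other DNA-binding partners 17 were tested, with 6 called lower, 2 higher and a median of −0.22. The median was −0.13 without FT671 replicate 3 and −0.14 after correction for gene length or for GC content. The number called higher was 1 without DMSO replicate 1, DMSO replicate 2, FT671 replicate 1 or FT671 replicate 2. GFI1 (4.82 to 1.54 CPM, log2 fold change −1.59, edgeR adjusted p = 2.59e-04) and PRDM1 (1.64 to 0.669 CPM, −1.33, adjusted p = 0.0175), both transcriptional repressors of blood cells, fell at low levels. EN1, a homeobox factor, fell by 0.92 on the log2 scale. Also called lower, at higher levels, were MYB (607 to 476 CPM, −0.35, adjusted p = 0.00245) and IKZF1 (183 to 149 CPM, −0.29, adjusted p = 0.00485). HHEX was called lower too, from 116 to 99.2 CPM (−0.22, adjusted p = 0.0268). BCL6, a repressor known from B cells, rose from 20.1 to 38.2 CPM (0.95, adjusted p = 7.19e-06).

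All 26 genes of the co-repressor and deacetylase machinery were tested, with 10 called lower, 5 higher and a median of −0.10. After correction for gene length the median was 0.04, with 7 called lower and 10 higher. It was −0.05 after correction for GC content (11 lower, 9 higher) and −0.05 without DMSO replicate 3. Over all genes tested the median also rose, to 0.044 after the length correction and 0.029 after the GC correction. The number called higher was 3 without DMSO replicate 1, FT671 replicate 2 or FT671 replicate 3. TRIM28 (KAP1), the co-repressor of KRAB zinc fingers, fell from 672 ± 70.0 to 301 ± 33.5 CPM (log2 fold change −1.16, edgeR adjusted p = 3.73e-07). TBL1X, a subunit of histone deacetylase complexes, fell by 0.66 on the log2 scale (adjusted p = 8.54e-06). In contrast, GPS2, also found in such complexes (0.64, adjusted p = 4.34e-04), and the histone-binding RBBP7 (0.51, adjusted p = 5.22e-05) rose. So did RCOR3 (0.37, adjusted p = 0.00466) and SAP18 (0.20, adjusted p = 0.0399). CTBP2 rose at low levels, from 3.66 to 5.25 CPM (0.61, adjusted p = 0.0315). CTBP1, listed beside it and far more abundant, was called lower (154 to 128 CPM, −0.28, adjusted p = 0.014). The genes called lower also included HDAC1 (−0.53, adjusted p = 4.92e-05), HDAC2 (−0.28, adjusted p = 0.00474), SIN3A (−0.63, adjusted p = 2.31e-05) and MTA1 (−0.44, adjusted p = 1.96e-04). All 5 genes called higher are named here, and the 10 called lower only in part.

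TLE proteins are themselves controlled by ubiquitination and phosphorylation, and all 16 genes listed for this were tested, with 8 called lower, 2 higher and a median of −0.14 (−0.01 after correction for gene length, −0.096 without FT671 replicate 1). The number called higher was 4 after correction for gene length and 5 after correction for GC content, and 1 without DMSO replicate 1 or FT671 replicate 3. VCP, an ATPase that extracts ubiquitinated proteins, fell from 266 ± 7.23 to 116 ± 4.71 CPM (log2 fold change −1.21, edgeR adjusted p = 3.3e-08). Of its cofactors, NPLOC4 fell from 142 to 74.7 CPM (−0.93, adjusted p = 6.44e-07), while UFD1 rose from 255 to 328 CPM (0.36, adjusted p = 6.07e-04). The kinase subunit CSNK2A1 fell by 0.68 (adjusted p = 1.91e-05), and the ubiquitin ligase HUWE1 rose by 0.24 (adjusted p = 0.014).

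Finally, genes known as targets of WNT and TCF/LEF, at which TLE proteins repress in other cells, did not move one way. Of 18 genes 11 were tested, with 3 called lower, 3 higher and a median of 0.11. The median was 0.063 without FT671 replicate 1, 0.20 without FT671 replicate 2 and 0.059 without FT671 replicate 3, and 0.17 and 0.18 after correction for gene length and GC content. MYC fell from 358 ± 16.8 to 241 ± 5.64 CPM (log2 fold change −0.57, edgeR adjusted p = 1.22e-05). ZNRF3 (−0.79, adjusted p = 0.00197) and RNF43 (−0.61, adjusted p = 0.0385), ubiquitin ligases that remove WNT receptors, fell from low levels of 11.7 and 6.78 CPM. NOTUM, a secreted WNT inhibitor (0.74, adjusted p = 1.2e-04), CD44 (0.48, adjusted p = 0.00132) and TCF7, which is also listed as a partner, rose. AXIN2, a broadly used WNT target, was low in both groups (2.31 and 1.88 CPM, log2 fold change −0.29, adjusted p = 0.471).

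**Figure D4:**
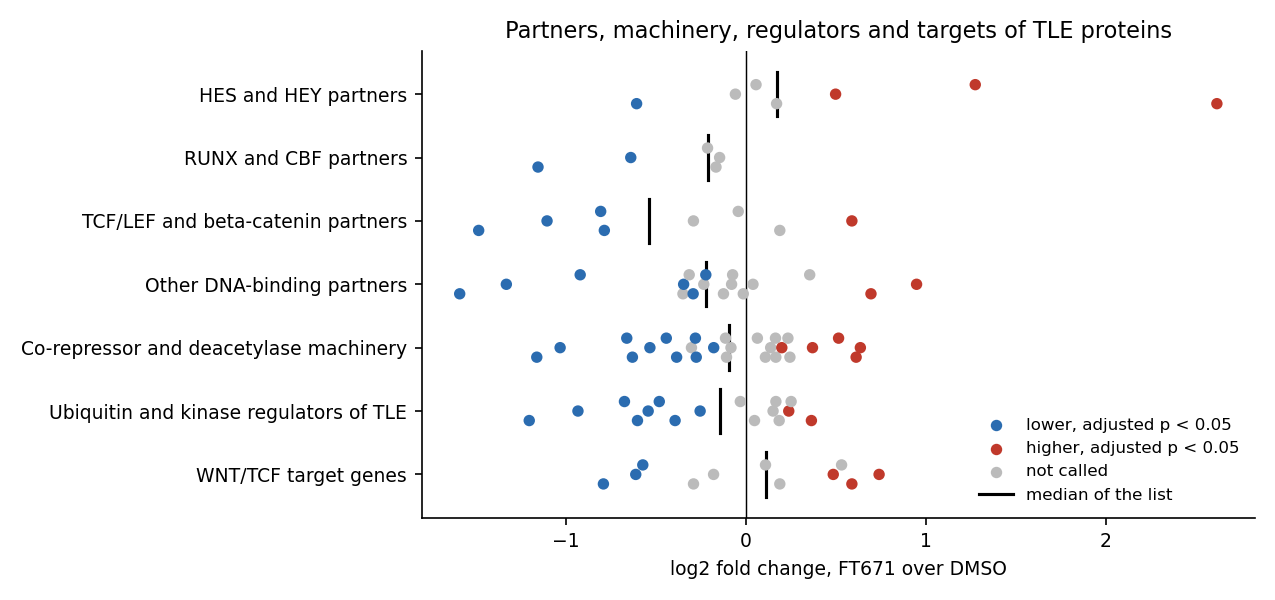
Log2 fold change, FT671 over DMSO, of the tested genes in 7 lists of partners, machinery, regulators and targets of TLE proteins. Each point is a gene, blue where called lower, red where called higher and grey where not called at an adjusted p of 0.05, and the black bar is the median of the list. The median lies lowest in the TCF/LEF and beta-catenin list (−0.54) and highest in the HES and HEY list (0.17).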

How the data were processed

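RNA-seq libraries of K562 cells (3 DMSO, 3 FT671) were analysed from the raw read counts per gene that the authors deposited. According to the labels and the study's methods, STAR alignment to hg38 by the authors gave the counts. The annotation release and strand setting are not given in the sources used here. Of 60609 genes, 60295 were matched to GENCODE release 44, and the 314 others held 0.0609% of the counts. Chromatin data of the series were not analysed here.

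Genes were filtered with filterByExpr of edgeR 4.0.16 in R 4.3.3 (13895 kept), scaled by TMM and compared by the quasi-likelihood test without covariates, with Benjamini-Hochberg adjustment. CPM use TMM-scaled library sizes. CPM per kb were divided by the union of annotated exons. Replicates differed by more than counting error (chi-square per degree of freedom of 2.07 to 8.73 over genes with at least 20 counts). Alternatives were DESeq2 1.42.0 (size factors and Wald test), library totals, no filter, loess corrections (span 0.3) for gene length or GC content, the replicate number as a block, the study's threshold of 1e-05, and leaving out each library. Addition of the antisense gene to TLE5 was chosen after its values were seen. The fit was tested on simulated counts.

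The members and lists were chosen with earlier results of these data known. Named were all members, genes with a TLE symbol or overlapping a member, the 5 genes most like TLE3, and from each list up to 3 genes per direction with the largest called change and at least 1 CPM. RUNX1, TCF7L2, RCOR3, SAP18, HDAC1, HDAC2, SIN3A, MTA1, AXIN2, TLE1P1, TLE1-DT and the marker genes fall outside this rule. So do CTBP1, HHEX, IKZF1, MYB, SKP1 and EIF5A. All of these were chosen after their values were seen. A few genes that the rule names are not reported here.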

Additional observations from a re-analysis of the deposited data

How the results depend on the processing

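No tested member changed direction. Over the results that answer a comparison, 126 alternative values kept their direction and their side of the threshold, 17 moved, 7 gained and 8 lost a call. At the study's threshold of 1e-05, the edgeR fit called 574 genes lower and 249 higher. The study applied this threshold to DESeq2, so these are not its own counts. TLE2, TLE4 and TLE5 did not pass it in the main fit (edgeR adjusted p of 0.0404, 7.3e-04 and 0.0549). TLE2 lost its call with DESeq2's size factors (−0.26), DESeq2's Wald test (−0.26), the length correction (−0.24) and the GC correction (−0.17), and leaving out single libraries gave −0.40 to −0.19. TLE3 moved to −1.46 (length), −1.45 (length with replicate block), −1.53 (GC) and −1.53 (GC with replicate block). TLE5 gained a call with DESeq2's size factors (0.19), the length correction (0.25), length with replicate block (0.26), GC (0.25) and GC with replicate block (0.25), and leaving out single libraries gave 0.11 to 0.22. List genes called higher numbered 24 (length), 27 (length with replicate block), 24 (GC) and 25 (GC with replicate block) instead of 15. Over all genes the number called higher was 3848, 3919, 4011 and 4010 in the same settings, instead of 3276. Total TLE output had a log2 ratio of −0.069 per kb and −0.15 with the antisense gene, and the share of TLE3 differed by −19.0 percentage points without length. In the DMSO order 4 neighbouring pairs were apart with the longest transcript as length and 4 without length, and 3 to 4 with single libraries left out. The causes were not tested.

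The replicate numbers occur in both groups. Deviations from the group mean correlated between same-numbered libraries with Pearson's r of 0.115, −0.0605 and 0.14 across 13895 genes, which are not independent replicates. Not every pair exceeded 0.1, and whether a number marks an experiment is not given in the sources used here, so the libraries were not treated as paired. With the replicate block, TLE5 gained a call (0.18, adjusted p = 0.0432), TLE2 kept its call, and list genes numbered 34 lower and 16 higher. For TLE1 no alternative gave a fold change. TLE4, with 31 to 199 counts per library, and the low list genes are limited by depth.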
